A study of Homo sapiens with 12 samples.

Results

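The mammalian circadian clock was followed here through 10 of its genes, BHLHE40, BHLHE41, PER1, PER2, CRY1, CRY2, ARNTL, NR1D1, NR1D2 and RORA. They were chosen by symbol, with BHLHE40 as the lead gene and with earlier results of these data known. All 10 were found among the 24641 gene symbols of the deposited count table and among the 15648 that had enough reads to be tested. The libraries came from MDA-MB-231, a line from a human breast cancer that lacks hormone receptors and HER2 amplification, carrying a short hairpin RNA against RIPOR3 (shRIPOR3) or a control hairpin (shControl). The 4 groups of 3 libraries each were shRIPOR3 in hypoxia, shControl in hypoxia, shRIPOR3 in normoxia and shControl in normoxia. Hypoxia was 1% O2 for 24 hours, and every group shared the cell line, serum-containing DMEM and 5% CO2. The labels show a single RIPOR3 hairpin, so an effect of the hairpin itself and an effect of less RIPOR3 cannot be told apart. The study's title concerns RIPOR3 mRNA, hypoxia and breast tumour growth, and these 4 groups ask how the knockdown and low oxygen each change gene expression.

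The clock is a loop of transcription factors. CLOCK and BMAL1, which ARNTL encodes, bind as a pair to E-box elements and activate PER1, PER2, CRY1, CRY2, NR1D1, NR1D2, BHLHE40 and BHLHE41. PER and CRY proteins return to the nucleus and inhibit that pair. NR1D1 and NR1D2 (REV-ERB alpha and beta) repress ARNTL, and RORA activates it through the same kind of element. BHLHE40 and BHLHE41 (also called DEC1 and DEC2) are repressors that compete for E-boxes, and both are known as genes that hypoxia-inducible factors switch on. The labels give no clock time and no synchronisation, and each group was taken at 1 time point, so a change of level and a shift of phase cannot be told apart.

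The letters of the element named above are shown for the genes that hold it, because CLOCK and BMAL1 act through it. RefSeq gene starts (GRCh38.p14) were matched for 10 of 10 genes, 13 starts in all, and the 250 bases before each start were searched on both strands. The E-box CACGTG stood before 1 start each of 4 of the 10 genes, thus before 4 of the 13 starts. Counted per start as well, 6.34% of 35116 RefSeq promoters of that length hold it. Each stretch is 30 bases, 5′ to 3′ on the gene's own strand, with the E-box in capitals. It stood 245 bases before the BHLHE40 start (chr3:4979187-4979216, plus strand), 48 before the BHLHE41 start (chr12:26125068-26125097, minus strand) and 173 before the PER1 start (chr17:8152560-8152589, minus strand). Before the second NR1D2 start there were 2 E-boxes, at 155 bases (chr3:23945954-23945983, plus strand) and at 105 bases (chr3:23946004-23946033, plus strand).
BHLHE40: tccaaCACGTGagactcatgtgatgaagcc
BHLHE41: tggtacgttccgCACGTGagctgggtgctg
PER1: agcacccaggtcCACGTGcgcccgtgtgtg
NR1D2, distal: ggcgggcggggaCACGTGaggccgctcggc
NR1D2, proximal: gggccgcagggaCACGTGggggcgggggcg
The BHLHE40 window also held ACGTG, one form of the core letters of the hypoxia response element, at 2 further places outside the E-box. They lay 174 bases (chr3:4979251-4979280, plus strand) and 149 bases (chr3:4979276-4979305, plus strand) before the start, and 18.5% of all such promoters hold ACGTG on either strand, inside an E-box included. Outside any E-box ACGTG also stood in the windows of PER2 (2 places), CRY1 (1), CRY2 (2, second start) and NR1D1 (1). GCGTG, the other form of the core, was not in the BHLHE40 window. It stood in those of BHLHE41 (1 place), CRY1 (1), NR1D1 (2) and NR1D2 (1, second start), and 32.2% of all such promoters hold it. In the 2 stretches of BHLHE40 the capitals mark ACGTG or its reverse complement.
BHLHE40, distal: ggcagtggccagACGTGcctggagtcacag
BHLHE40, proximal: cacagggtagaaCACGTagctccaacccac
GENCODE 29 starts the BHLHE40 and BHLHE41 transcripts further upstream, so it places the sites shown for these 2 genes in their 5′ untranslated regions. It also starts PER1 and NR1D2 further upstream. Their sites thus lie within the spans of those genes, outside the annotated untranslated and coding parts. The bases after the starts used for PER2 and RORA, and after 1 of the ARNTL starts, were not found in a GENCODE 29 transcript of the gene. The lack of an E-box before these starts therefore says little. A match of letters is a description of the sequence only.

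Library totals ran from 31781324 to 52526813 counts in hypoxia and from 14750734 to 30032858 in normoxia, so depth differed with oxygen. Levels below are CPM, counts scaled to the library total after TMM correction, given as mean ± SD over the 3 libraries of a group. Differences are log2 fold changes ± SE from edgeR's quasi-likelihood test, with p-values adjusted by Benjamini and Hochberg over all genes tested and called at 0.05. The labels do not say whether the replicates of a group were grown apart, and the p-values therefore speak to the spread among these libraries, which may be technical. RIPOR3, the knocked-down gene, had 9, 3 and 11 counts in shRIPOR3 and 33, 18 and 30 in shControl in hypoxia. In normoxia it had 0, 0 and 1 in shRIPOR3 and 7, 3 and 7 in shControl. Its highest level in any library was 0.837 CPM. It was 4.57-fold lower in shRIPOR3 in hypoxia (adjusted p = 1.69e-06) and 13.4-fold lower in normoxia (adjusted p = 0.0013), the latter from few counts. Hypoxia raised RIPOR3 by 1.53 ± 0.352 in shControl (adjusted p = 0.000546) and by 3.08 ± 0.902 in shRIPOR3 (adjusted p = 0.00547). Of the line's markers, the summed level of VIM, CD44, EGFR, TWIST1 and ZEB1 was 1559 to 1568 CPM in hypoxia shRIPOR3, 2043 to 2116 in hypoxia shControl, 1213 to 1253 in normoxia shRIPOR3 and 1331 to 1369 in normoxia shControl, with TWIST1 at 0.144 CPM or less. Among receptor and junction genes, ESR1 reached at most 0.331 CPM, PGR 0.683 and CDH1 1.65, while ERBB2 stood at 30.3 to 44.3 CPM. The summed luminal epithelial markers, mostly KRT8 and KRT18, were 1205 to 1262 CPM in hypoxia shRIPOR3, 1155 to 1183 in hypoxia shControl, 1452 to 1513 in normoxia shRIPOR3 and 1348 to 1446 in normoxia shControl. That sum was thus lower in hypoxia with either hairpin, and its part in the results was not tested. The 3 blood markers in the table stayed at or below 0.983 CPM in sum. The sum of 3 endothelial markers (PECAM1, CDH5 and VWF) was 3.18 to 4.37 CPM in hypoxia shRIPOR3, 12.8 to 13.6 in hypoxia shControl, 2.24 to 3.01 in normoxia shRIPOR3 and 7.16 to 8.34 in normoxia shControl. The sum of 4 fibroblast markers (COL1A1, COL1A2, PDGFRB and DCN) was 6.79 to 7.30 CPM in hypoxia shRIPOR3, 10.6 to 11.9 in hypoxia shControl, 3.50 to 5.22 in normoxia shRIPOR3 and 5.74 to 7.72 in normoxia shControl. VWF stayed at or below 0.271 CPM, COL1A2 at or below 0.211 and DCN at or below 0.0719. Both sums, like BHLHE40, were highest in hypoxia shControl and lowest in normoxia shRIPOR3. Their part in the results was not tested.

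BHLHE40 rose in hypoxia with either hairpin and was lower in shRIPOR3 at either oxygen level. BHLHE40 occupies 4979116 to 4985323 on the plus strand of chromosome 3 (GRCh38, as GENCODE 29 annotates it, like all gene positions here). Its levels were 27.5, 26.0 and 26.5 CPM in the hypoxia shRIPOR3 libraries and 112, 112 and 109 CPM in the hypoxia shControl libraries. In normoxia they were 7.87, 7.55 and 6.90 CPM in shRIPOR3 and 20.8, 21.4 and 21.1 CPM in shControl. The 4 groups did not overlap, and hypoxia shRIPOR3 stood only slightly above normoxia shControl. As bulk values, fewer expressing cells and less RNA per cell cannot be told apart. Hypoxia raised BHLHE40 by 1.86 ± 0.0593 (3.63-fold, adjusted p = 2.08e-17) in shRIPOR3 and by 2.40 ± 0.0442 (5.27-fold, adjusted p = 2.85e-22) in shControl. Among 15648 genes these were the 63rd and 74th highest log2 fold changes of their comparisons. The log2 difference of shRIPOR3 from shControl was -2.06 ± 0.0388 in hypoxia, the 87th lowest of all genes (adjusted p = 4.67e-22). In normoxia that difference was -1.52 ± 0.0660, the 166th lowest (adjusted p = 5.77e-15). The hypoxia effect in shRIPOR3 was smaller than that in shControl by 0.54 on the log2 scale (interaction -0.54 ± 0.0798, adjusted p = 2.92e-05). Hypoxia shRIPOR3 still exceeded normoxia shControl, the neighbour below it in the order of levels, by 1.27-fold (adjusted p = 1.33e-06). The tests that change hairpin and oxygen at once serve only to order the levels: hypoxia shRIPOR3 against normoxia shControl called 62.2% of all genes, and hypoxia shControl against normoxia shRIPOR3 called 71.8%.

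**Figure D1:**
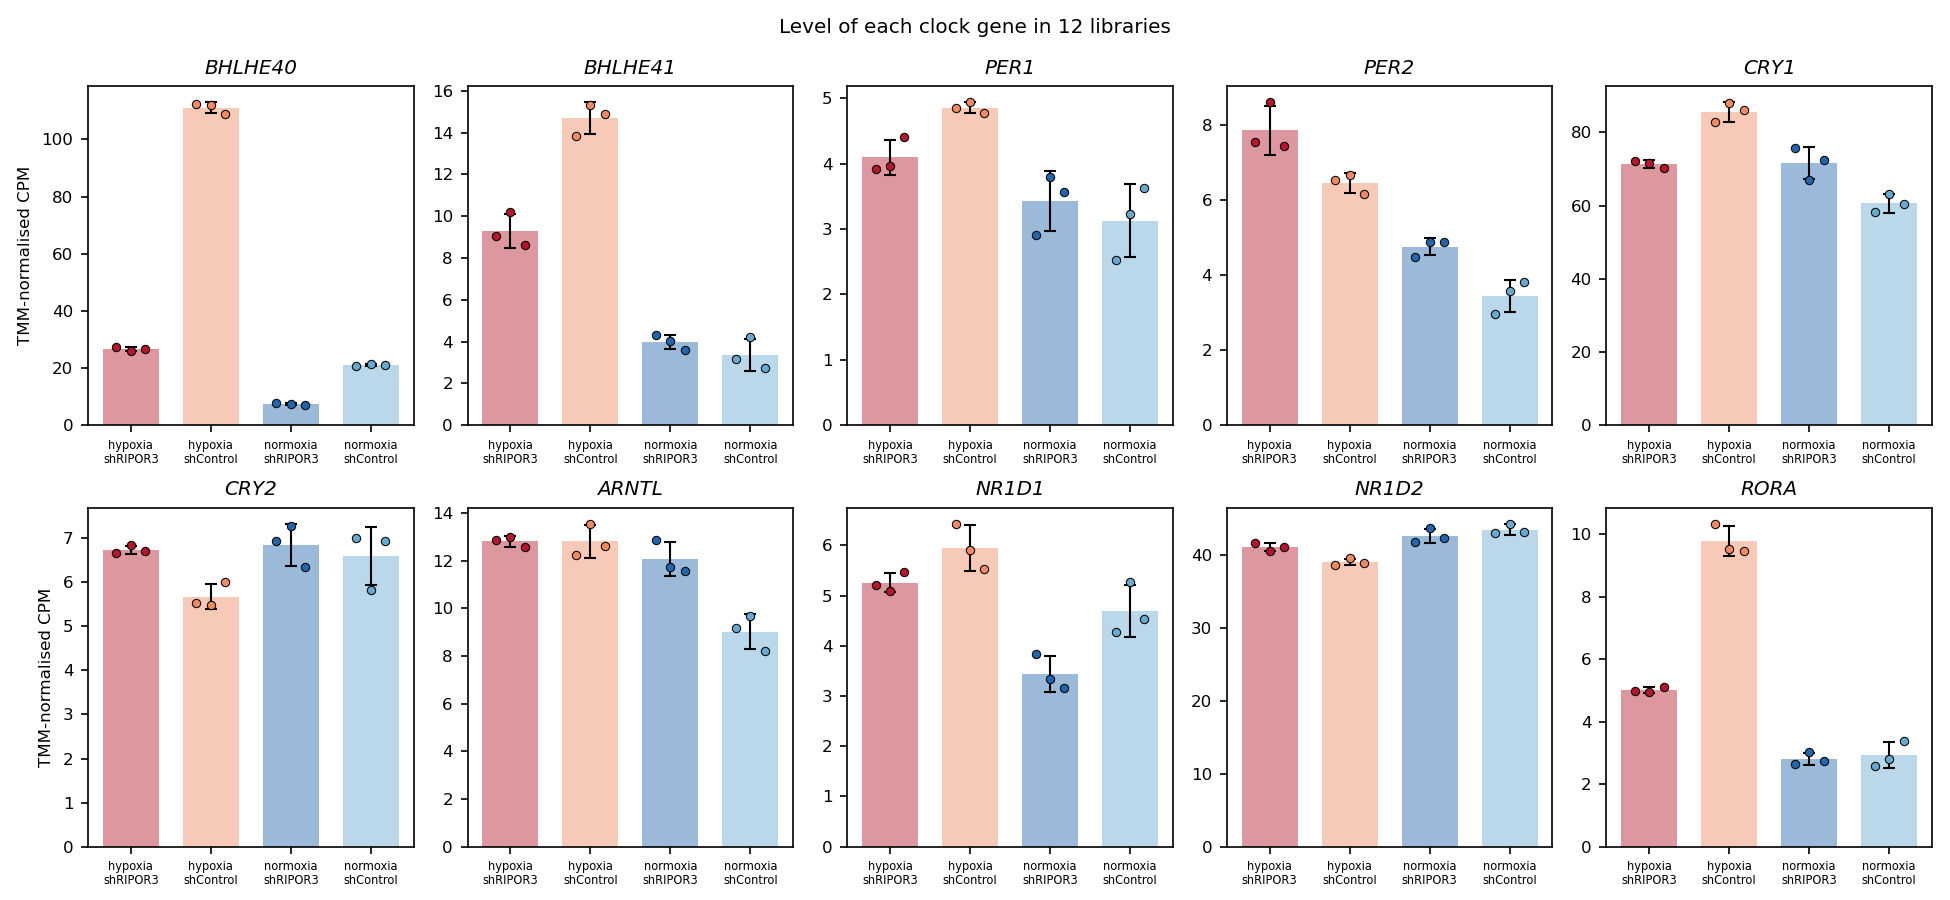
Levels of the 10 clock genes in TMM-normalised CPM (linear vertical axes from 0, one panel per gene) in hypoxia shRIPOR3, hypoxia shControl, normoxia shRIPOR3 and normoxia shControl. Bars are means, whiskers SD (n = 3) and points single libraries; BHLHE40 in hypoxia stood at 26.6 CPM in shRIPOR3 against 111 CPM in shControl, while NR1D2 stayed between 39.1 and 43.5 CPM in all group means.

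BHLHE41, the paralogue of BHLHE40, rose in hypoxia as well, but its normoxic level did not differ between hairpins beyond the spread. The gene (chromosome 12, 26120026 to 26125127, minus strand) was measured at 9.05, 10.2 and 8.64 CPM in hypoxia shRIPOR3 and at 13.8, 15.3 and 14.9 CPM in hypoxia shControl. Normoxia shRIPOR3 had 4.30, 4.03 and 3.61 CPM and normoxia shControl 3.17, 4.21 and 2.73 CPM. The normoxic groups overlapped, and both hypoxic groups lay above them without touching each other. Hypoxia raised it by 1.24 ± 0.109 (2.36-fold, adjusted p = 8.69e-10) in shRIPOR3 and by 2.18 ± 0.109 (4.54-fold, adjusted p = 1.48e-14) in shControl. The interaction of hairpin and oxygen was -0.95 ± 0.165 (adjusted p = 0.000189). The knockdown lowered it in hypoxia (-0.67 ± 0.0777, adjusted p = 7.11e-08). In normoxia the difference was 0.28 ± 0.146 with a 95% interval from -0.02 to 0.58 (adjusted p = 0.125), and without replicate 2 of normoxia shControl it was 0.41 with an adjusted p of 0.0255 (from 0.0255 to 0.529 over 22 alternatives). The paralogues' exons are distinct in the annotation, although 4.1% of BHLHE41 exon bases overlap SSPN on the opposite strand.

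The balance of the paralogues differed between hairpins. The ratio of BHLHE40 to BHLHE41 counts was 3.03, 2.55 and 3.07 in hypoxia shRIPOR3 and 8.12, 7.30 and 7.32 in hypoxia shControl. In normoxia it was 1.83, 1.88 and 1.91 in shRIPOR3 and 6.57, 5.08 and 7.74 in shControl. Every shRIPOR3 library lay below every shControl library at the same oxygen level, by 2.63-fold in hypoxia and 3.40-fold in normoxia on geometric means. A two-sided exact permutation test within 1 oxygen level gave p = 0.1 in each case, the smallest that 3 libraries against 3 allow. Permuting hairpins within both oxygen levels at once gave a 2.99-fold lower ratio in shRIPOR3 with an exact two-sided p of 0.005, the smallest of 400 arrangements. This ratio was chosen with the levels of both genes known, so these p-values add no support beyond those levels. A ratio alone shows unequal change of the paralogues, not which of them changed. In the tests of single genes, the knockdown difference in hypoxia was -2.06 for BHLHE40 and -0.67 for BHLHE41, both called. In normoxia it was -1.52 for BHLHE40 and 0.28, not called, for BHLHE41.

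**Figure D2:**
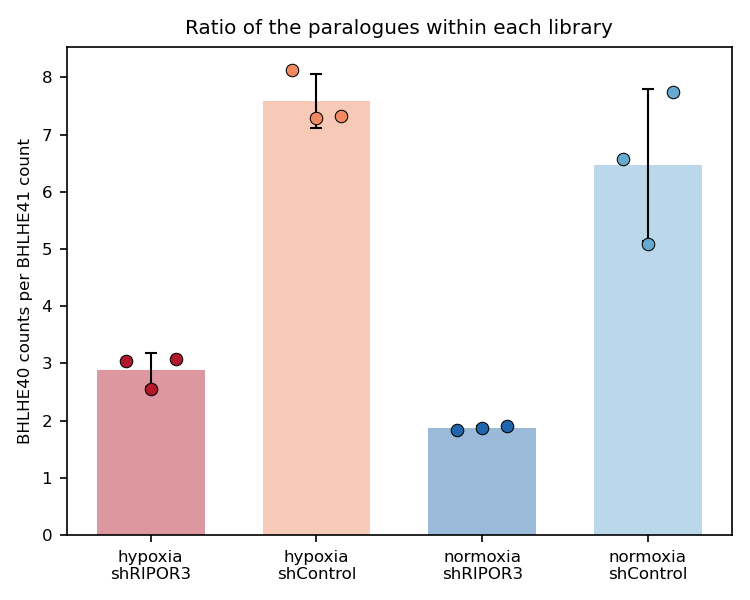
Ratio of BHLHE40 to BHLHE41 counts (linear vertical axis) in hypoxia shRIPOR3, hypoxia shControl, normoxia shRIPOR3 and normoxia shControl. Bars are means, whiskers SD (n = 3) and points single libraries; the mean ratio in hypoxia was 2.88 in shRIPOR3 and 7.58 in shControl, and in normoxia it was 1.87 in shRIPOR3 and 6.47 in shControl.

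Across the 10 genes, 5 were called higher in hypoxia in shRIPOR3, 0 lower and 5 not, where 55.6% of all genes tested were called, 25.2% higher and 30.4% lower. The median log2 fold change of the 10 was 0.44, against -0.01 over all genes tested. At an unadjusted p under 0.05 edgeR gave 0 lower there as well, and DESeq2 also gave 0. In shControl, 8 were called higher and 2 lower in hypoxia, against 64.8% of all genes called (32.4% higher and 32.4% lower), with a median of 0.57 against 0.02 over all genes. With library totals in place of TMM 8 were called higher and 0 lower there, since CRY2 and NR1D2 lost their calls. For shRIPOR3 against shControl in hypoxia, 2 were called higher and 5 lower, against 61.9% of all genes called (30.7% higher, 31.2% lower). In normoxia 3 were called higher and 2 lower, against 45.7% of all genes called (25.1% higher, 20.6% lower). The shares called were near the background in all of these comparisons but hypoxia in shControl. Because the 10 genes were chosen with earlier results of these data known, no count here tests them against the background. The hypoxia response differed between hairpins in 5 of 10 genes, in each case lower in shRIPOR3, against 23.2% of all genes (10.9% higher, 12.3% lower). None of the 10 was called with a higher response in shRIPOR3, a count of 0 that edgeR also gave at an unadjusted p under 0.05 and that DESeq2 gave as well. The interaction terms of NR1D1 (0.27), CRY2 (0.22) and NR1D2 (0.10) were positive but not called.

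**Figure D3:**
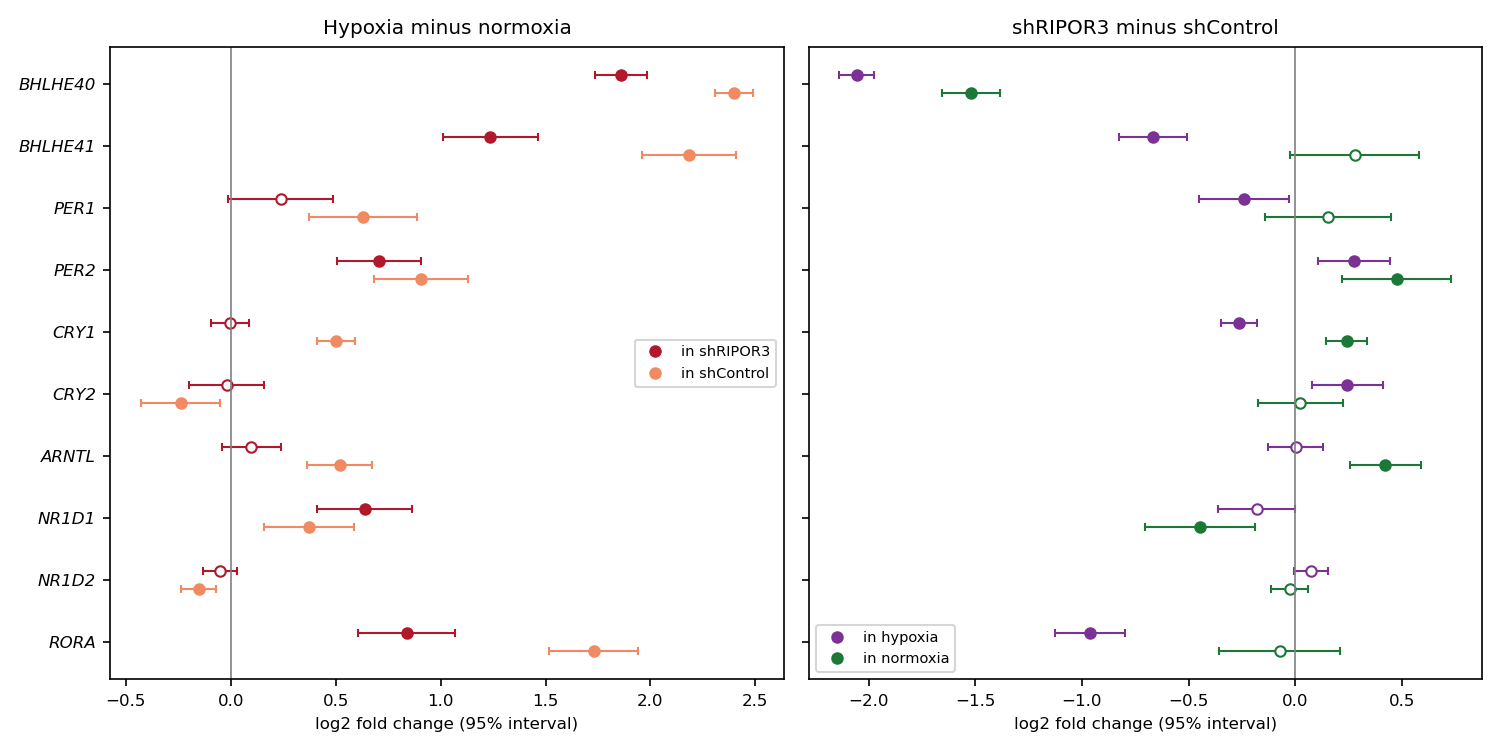
Log2 fold change of each clock gene (horizontal axis) for hypoxia minus normoxia within each hairpin (left) and shRIPOR3 minus shControl within each oxygen level (right). Whiskers are 95% intervals; filled points passed an adjusted p of 0.05 and open points did not. BHLHE40 reached -2.06 in hypoxia and -1.52 in normoxia on the right, and CRY1 lies on opposite sides of 0 at -0.26 and 0.24.

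Among the inhibitors of CLOCK and BMAL1, PER2 was higher in hypoxia with both hairpins and higher in shRIPOR3 at both oxygen levels. PER2 (chromosome 2, 238244038 to 238290102, minus strand), which encodes a period protein that acts with cryptochromes, was measured at 7.55, 8.62 and 7.45 CPM in hypoxia shRIPOR3 and 6.53, 6.69 and 6.17 CPM in hypoxia shControl. It stood at 4.50, 4.90 and 4.90 CPM in normoxia shRIPOR3 and 2.97, 3.58 and 3.81 CPM in normoxia shControl. No groups overlapped, and all neighbours in the order of levels differed. The hypoxia effect was 0.71 ± 0.0968 (adjusted p = 1.08e-06) in shRIPOR3 and 0.91 ± 0.109 (adjusted p = 9.00e-08) in shControl. The knockdown effect was 0.28 ± 0.0822 in hypoxia (adjusted p = 0.00551) and 0.48 ± 0.124 in normoxia (adjusted p = 0.00271). With all libraries thinned to the smallest total the hypoxic difference was 0.19 with an adjusted p of 0.163 (from 0.00242 to 0.163 over 22 alternatives).

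PER1, which encodes another period protein, rose in hypoxia in shControl. The gene (chromosome 17, 8140472 to 8156506, minus strand) was measured at 3.92, 3.96 and 4.41 CPM in hypoxia shRIPOR3 and 4.85, 4.94 and 4.77 CPM in hypoxia shControl. It stood at 2.91, 3.80 and 3.57 CPM in normoxia shRIPOR3 and 2.53, 3.23 and 3.63 CPM in normoxia shControl. The normoxic groups overlapped, and hypoxia shControl lay above all other libraries. Hypoxia raised PER1 in shControl (0.63 ± 0.124, adjusted p = 9.82e-05), and in shRIPOR3 the difference was 0.24 ± 0.121 (adjusted p = 0.102). With library totals in place of TMM the difference in shRIPOR3 was 0.36 with an adjusted p of 0.0143 (from 0.0143 to 0.321 over 22 alternatives). The knockdown difference in hypoxia, -0.24 ± 0.102 (adjusted p = 0.0440), lost its call under 12 of 22 alternatives (adjusted p from 0.0305 to 0.179).

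CRY1, a cryptochrome and strong repressor of the CLOCK and BMAL1 pair, rose in hypoxia in shControl and differed between hairpins in opposite directions in hypoxia and normoxia. Its levels (chromosome 12, 106991364 to 107093829, minus strand) were 72.3, 71.6 and 70.2 CPM in hypoxia shRIPOR3 and 82.7, 88.0 and 86.1 CPM in hypoxia shControl. They were 75.7, 66.9 and 72.3 CPM in normoxia shRIPOR3 and 58.2, 63.3 and 60.5 CPM in normoxia shControl. Hypoxia shControl was highest and normoxia shControl lowest, and the shRIPOR3 groups overlapped between them. In shControl hypoxia raised CRY1 by 0.50 ± 0.0445 (1.42-fold, adjusted p = 5.41e-10). In shRIPOR3 the hypoxia difference was -0.003 ± 0.0437 with a 95% interval from -0.09 to 0.09 (adjusted p = 0.961), and with library totals in place of TMM it was 0.12 with an adjusted p of 0.0276 (from 0.0276 to 0.966 over 22 alternatives). The knockdown difference changed sign with oxygen, at -0.26 ± 0.0413 in hypoxia (adjusted p = 6.23e-06) and 0.24 ± 0.0467 in normoxia (adjusted p = 0.000159). The interaction was -0.50 ± 0.0623 (adjusted p = 2.88e-06).

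CRY2, its paralogue, showed small differences. The gene (chromosome 11, 45847118 to 45883248, plus strand) had 6.66, 6.83 and 6.70 CPM in hypoxia shRIPOR3 and 5.53, 5.48 and 6.001 CPM in hypoxia shControl. Normoxia shRIPOR3 had 6.94, 7.28 and 6.34 CPM and normoxia shControl 7.005, 5.83 and 6.94 CPM. Hypoxia shControl was the lowest group and overlapped normoxia shControl. It was lower in hypoxia in shControl by a log2 difference of -0.24 ± 0.0912 (adjusted p = 0.0250), a call lost under 8 of 22 alternatives (adjusted p from 0.00710 to 0.629). In hypoxia shRIPOR3 exceeded shControl by 0.24 ± 0.0804 (adjusted p = 0.0108), which became 0.10 with an adjusted p of 0.559 after thinning all libraries to the smallest total (from 0.00697 to 0.559 over 22 alternatives).

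ARNTL, which encodes BMAL1, the activator that pairs with CLOCK, was lowest in normoxia shControl, and the other 3 groups did not differ from their neighbours beyond the spread. The gene (chromosome 11, 13276652 to 13387266, plus strand) was measured at 12.9, 13.02 and 12.6 CPM in hypoxia shRIPOR3 and 12.3, 13.6 and 12.6 CPM in hypoxia shControl. It stood at 12.9, 11.8 and 11.6 CPM in normoxia shRIPOR3 and 9.18, 9.69 and 8.23 CPM in normoxia shControl. Only normoxia shControl lay apart from the other groups. Hypoxia raised it in shControl by 0.52 ± 0.0740 (adjusted p = 1.34e-06), and the knockdown raised it in normoxia by 0.42 ± 0.0803 (adjusted p = 0.000126). In shRIPOR3 the hypoxia difference was 0.10 ± 0.0685 (adjusted p = 0.237, interval from -0.04 to 0.24), and in hypoxia the knockdown difference had an interval from -0.13 to 0.13. With library totals in place of TMM the hypoxia difference in shRIPOR3 was 0.22 with an adjusted p of 0.00936 (from 0.00936 to 0.565 over 22 alternatives). The interaction was -0.42 ± 0.101 (adjusted p = 0.00376), and -0.39 with an adjusted p of 0.0521 after thinning (from 0.00264 to 0.0521 over 21 alternatives).

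RORA, an activator of ARNTL, had the third largest rise in hypoxia of the 10 genes with either hairpin. The gene (chromosome 15, 60488284 to 61229319, minus strand) was measured at 4.98, 4.94 and 5.12 CPM in hypoxia shRIPOR3 and 10.3, 9.52 and 9.46 CPM in hypoxia shControl. It stood at 2.64, 3.02 and 2.73 CPM in normoxia shRIPOR3 and 2.57, 2.81 and 3.38 CPM in normoxia shControl. The normoxic groups overlapped, and the hypoxic groups were apart. Hypoxia raised it by 0.84 ± 0.112 (1.79-fold, adjusted p = 7.08e-07) in shRIPOR3 and by 1.73 ± 0.103 (3.32-fold, adjusted p = 3.75e-13) in shControl. In hypoxia the knockdown difference was -0.96 ± 0.0801 (adjusted p = 2.34e-10), and in normoxia it was -0.07 ± 0.137 (adjusted p = 0.709). The interaction was -0.89 ± 0.160 (adjusted p = 0.000249).

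The REV-ERB genes, which repress ARNTL, differed from each other. NR1D1 (chromosome 17, 40092787 to 40100725, minus strand) had 5.21, 5.10 and 5.47 CPM in hypoxia shRIPOR3 and 6.43, 5.91 and 5.53 CPM in hypoxia shControl. It had 3.83, 3.34 and 3.15 CPM in normoxia shRIPOR3 and 4.27, 5.26 and 4.53 CPM in normoxia shControl. Normoxia shRIPOR3 lay below every other library. NR1D1 rose in hypoxia by 0.64 ± 0.109 (adjusted p = 2.27e-05) in shRIPOR3 and 0.37 ± 0.103 (adjusted p = 0.00283) in shControl, and fell with the knockdown in normoxia (-0.45 ± 0.124, adjusted p = 0.00490). The knockdown difference in hypoxia was -0.18 ± 0.0875 and not called (adjusted p = 0.0785). With the interaction not called either (0.27 ± 0.152, adjusted p = 0.227), the fall was not shown to be particular to normoxia. Of its exon bases 9.49% overlap exons of THRA on the opposite strand. The strand setting of the counting is not given in the sources used here, so how reads on those bases were counted is not known. NR1D2 (chromosome 3, 23945260 to 23980618, plus strand) averaged 41.1 ± 0.526 CPM in hypoxia shRIPOR3, 39.1 ± 0.454 in hypoxia shControl, 42.7 ± 0.999 in normoxia shRIPOR3 and 43.5 ± 0.719 in normoxia shControl. It was 1.11-fold lower in hypoxia in shControl (-0.15 ± 0.0403, adjusted p = 0.00201), and with library totals in place of TMM that difference was -0.04 with an adjusted p of 0.391 (from 0.00106 to 0.391 over 22 alternatives).

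The 5 genes whose interaction passed did not share 1 pattern of levels. In BHLHE41 and RORA the normoxic levels of both hairpins overlapped and the hypoxic level was lower in shRIPOR3. In ARNTL the hypoxic levels of both hairpins overlapped and the normoxic level was higher in shRIPOR3, and in CRY1 shRIPOR3 was lower in hypoxia and higher in normoxia. BHLHE40 was lower in shRIPOR3 at both oxygen levels. The interaction terms of PER1, PER2, CRY2, NR1D1 and NR1D2 did not pass the threshold, with adjusted p from 0.113 to 0.368.

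Levels of different genes can be set side by side only per length. Per kilobase of merged exon, BHLHE40 was the highest of the 10 in hypoxia shControl at 28.9 CPM per kb, ahead of CRY1 at 16.9, NR1D2 at 6.72 and BHLHE41 at 3.72. In hypoxia shRIPOR3 BHLHE40 stood at 6.94 CPM per kb, below CRY1 at 14.1 and NR1D2 at 7.07. In normoxia shControl the order was CRY1 at 11.99, NR1D2 at 7.48 and BHLHE40 at 5.504 CPM per kb, and RORA was the lowest at 0.171.

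Other genes of the loop were read from lists chosen with earlier results of these data known. Of 9 partners of the core genes, 8 were tested. Hypoxia called 2 higher and 4 lower in shRIPOR3, and 3 higher and 2 lower in shControl. The knockdown called 3 higher and 5 lower in hypoxia and 2 higher and 3 lower in normoxia. Of all genes tested, the shares called in these comparisons were 55.6%, 64.8%, 61.9% and 45.7%, in the same order. PER3, the third period gene, averaged 4.41 ± 0.191 CPM in hypoxia shRIPOR3, 9.65 ± 0.281 in hypoxia shControl, 5.997 ± 0.668 in normoxia shRIPOR3 and 9.43 ± 0.477 in normoxia shControl. Its knockdown differences were -1.13 ± 0.0786 in hypoxia (adjusted p = 9.26e-12) and -0.65 ± 0.0928 in normoxia (adjusted p = 3.32e-06), and its interaction was -0.48 (adjusted p = 0.00578). The direction was opposite to that of PER2 at both oxygen levels.

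TIMELESS and TIPIN encode partners that act at replication forks and have been tied to the clock, and they moved opposite ways. TIMELESS fell with the knockdown by 0.71 in hypoxia (adjusted p = 2.26e-13) and by 0.67 in normoxia (adjusted p = 5.45e-12) on the log2 scale. TIPIN rose with the knockdown by 0.52 in hypoxia (adjusted p = 7.25e-10) and 0.28 in normoxia (adjusted p = 3.48e-05). Hypoxia lowered TIPIN (-0.67 in shRIPOR3 and -0.92 in shControl) and ARNTL2, the BMAL1 paralogue (-0.47 in shRIPOR3 and -0.33 in shControl), and raised NPAS2, the CLOCK paralogue (0.38 in each hairpin), each with an adjusted p under the threshold of 0.05. CLOCK rose with the knockdown in normoxia by 0.23 ± 0.0488 (adjusted p = 0.000404) and in hypoxia by 0.11 ± 0.0443 (adjusted p = 0.0358). Its hypoxia difference was -0.22 ± 0.0458 in shRIPOR3 (adjusted p = 0.000216) and -0.10 ± 0.0475 in shControl, where it was not called (adjusted p = 0.0681). CIART, a repressor of the loop, was scarce, with 17, 17 and 14 counts in hypoxia shRIPOR3 and 27, 29 and 28 in hypoxia shControl, against 0, 8 and 2 in normoxia shRIPOR3 and 4, 0 and 2 in normoxia shControl. It was called lower in shRIPOR3 in hypoxia (adjusted p = 0.00300).

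Of 4 clock outputs, 3 were tested, and HLF had too few reads. DBP and TEF, activators that bind D-box elements, fell with the knockdown at both oxygen levels, and NFIL3, the repressor of the same elements, rose in normoxia and fell in hypoxia. DBP averaged 1.10 CPM in hypoxia shRIPOR3 and 1.66 CPM in hypoxia shControl, and 0.802 CPM in normoxia shRIPOR3 and 1.49 CPM in normoxia shControl. Its differences were -0.59 ± 0.149 in hypoxia (adjusted p = 0.00153) and -0.85 ± 0.212 in normoxia (adjusted p = 0.00197), and after thinning the hypoxic difference was -0.35 and lost its call. TEF fell by 0.57 in hypoxia (adjusted p = 1.96e-05) and by 0.51 in normoxia (adjusted p = 0.00196). NFIL3 differed by -0.30 in hypoxia (adjusted p = 0.000147) and by 0.26 in normoxia (adjusted p = 0.00814), with an interaction of -0.56 (adjusted p = 0.000214). In hypoxia against normoxia, only NFIL3 in shControl passed (0.66 ± 0.0705, adjusted p = 1.18e-08).

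**Figure D4:**
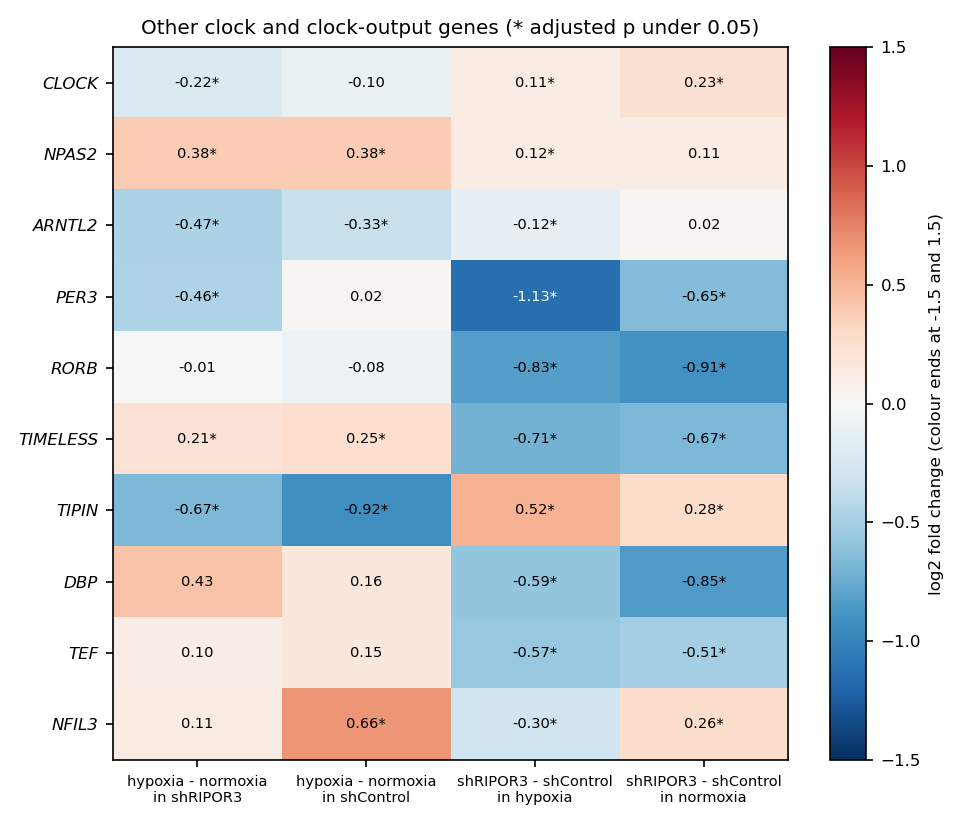
Log2 fold changes (colour and printed value) of 10 clock partners and outputs in rows, for hypoxia minus normoxia within each hairpin and shRIPOR3 minus shControl within each oxygen level in columns; a star marks an adjusted p under 0.05. PER3 and TIMELESS are negative and TIPIN positive in both knockdown columns, and CIART, with at most 29 counts in a library, is not drawn.

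The genes whose pattern over the 12 libraries was most like that of BHLHE40 were found by the root mean square difference of log2 CPM, each gene set to 0 at its mean in normoxia shControl, over 9790 genes with a mean of at least 5 CPM. CCNG2 was nearest at 0.31, then FN1 at 0.39, PFKFB4 at 0.39, LRP1 at 0.41 and MUC1 at 0.47. CCNG2, which encodes cyclin G2, averaged 9.25 CPM in hypoxia shRIPOR3, 41.2 in hypoxia shControl, 4.25 in normoxia shRIPOR3 and 9.29 in normoxia shControl. PFKFB4, which encodes an enzyme that sets the level of a glycolysis activator, averaged 17.99 CPM in hypoxia shRIPOR3, 47.9 in hypoxia shControl, 4.53 in normoxia shRIPOR3 and 9.29 in normoxia shControl. FN1 encodes fibronectin, LRP1 an endocytic receptor and MUC1 a membrane mucin, and each was likewise highest in hypoxia shControl and lowest in normoxia shRIPOR3. All 5 were picked for likeness to BHLHE40 in these same libraries, so the shared highest and lowest groups are no separate result. MUC1 averaged 3.67 CPM in hypoxia shRIPOR3, 14.1 in hypoxia shControl, 2.14 in normoxia shRIPOR3 and 3.74 in normoxia shControl. Unlike BHLHE40, CCNG2 and MUC1 did not have a higher mean in hypoxia shRIPOR3 than in normoxia shControl. The nearest of the other 9 clock genes was RORA at 0.83, and the farthest was CRY2 at 1.53. With a minimum mean of 1 CPM in place of 5, 3 of the 5 remained, and with library totals in place of TMM all 5 did.

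**Figure D5:**
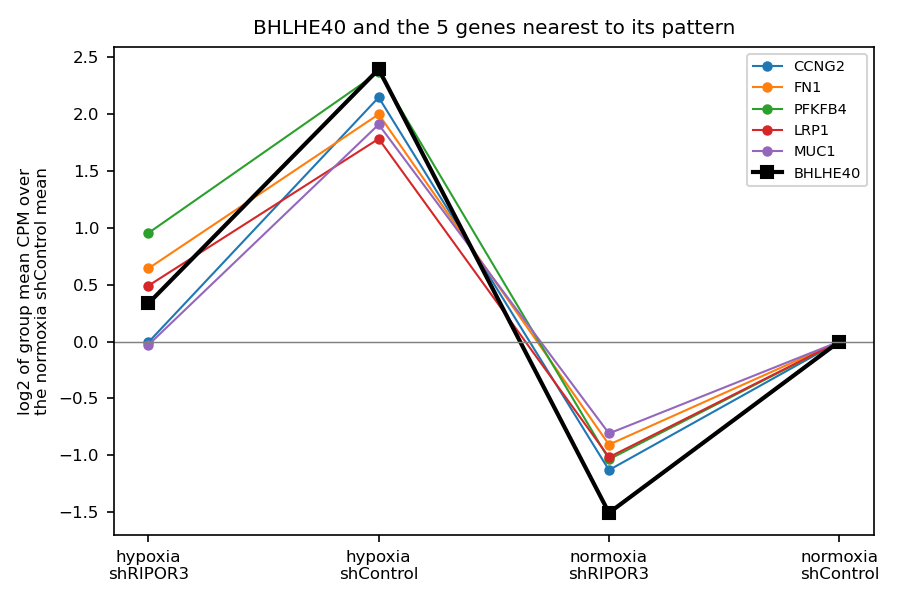
Group means of BHLHE40 (black) and the 5 genes most like it, as log2 of the mean CPM over the mean in normoxia shControl (vertical axis), with no error shown. In all 6 genes, 5 of them picked for likeness to BHLHE40 in these libraries, hypoxia shControl is highest and normoxia shRIPOR3 lowest. CCNG2, the nearest over single libraries, averaged 41.2 CPM in hypoxia shControl and 4.25 CPM in normoxia shRIPOR3.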

How the data were processed

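The table that the authors deposited holds raw counts, whole numbers for each gene symbol in each library. Per the submitters' processing notes the tools were featureCounts, STAR 2.5.3a and fastp 0.23.4 with the build GRCh38. Which annotation and which strand setting served for counting is not given in the sources used here. The libraries were stranded, per the labels' protocols.

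All 12 libraries were fitted together in edgeR 4.0.16 (R 4.3.3), with a coefficient for each of the 4 groups. filterByExpr kept 15648 of 24641 genes, with TMM factors of 0.951 to 1.05 and a biological coefficient of variation of 3.75%. Quasi-likelihood F-tests were adjusted by Benjamini and Hochberg over all genes tested, with 0.05 as the threshold. SE is the absolute log2 fold change over the square root of F, and intervals are at 95%. Of the 5 comparisons, 2 set hypoxia against normoxia, 2 set shRIPOR3 against shControl, and 1 was the interaction of hairpin and oxygen. The pipeline was tested on simulated data. Depth limits the genes of a few CPM most, and counting error is larger in normoxia, where libraries are shallower.

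The 10 genes and all lists were chosen with earlier results of these data known. Named beside them are up to 4 genes of each list with the smallest p in each comparison, RIPOR3, HIF1A, EPAS1, ARNT and the 5 genes nearest to BHLHE40; some genes that this rule takes are not reported here. A row of the table whose symbol had become a date was not taken for BHLHE40 (DEC1). Exon lengths and overlaps come from GENCODE 29, and promoter sequences from RefSeq. Alternatives were DESeq2 1.42.0, other scaling factors, other filters, leaving out each library, a stricter threshold (0.01), fits of 2 groups alone and a replicate block; thinning all libraries to the smallest total was added after seeing the data. Replicate numbers were not used as pairs. Figures were drawn with matplotlib.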

Additional observations from a re-analysis of the deposited data

Results flagged for a closer look

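The response to hypoxia differed between the hairpins, by the interaction test itself, in 5 of the 10 clock genes, against 23.2% of all genes tested (12.3% with a negative interaction). The hypoxia effect in shRIPOR3 minus that in shControl, on the log2 scale, was -0.54 for BHLHE40, -0.95 for BHLHE41, -0.50 for CRY1, -0.42 for ARNTL and -0.89 for RORA. The adjusted p-values of edgeR's quasi-likelihood test were 2.92e-05 for BHLHE40, 0.000189 for BHLHE41, 2.88e-06 for CRY1, 0.00376 for ARNTL and 0.000249 for RORA. Hypoxic libraries were deeper than normoxic ones, and after thinning to 1 total the ARNTL term was -0.39 with an adjusted p of 0.0521. All 5 have a negative sign, whichever of their levels differed between the hairpins. The 10 genes were chosen with earlier results of these data known, so the count of 5 does not test them as a set.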

How the results depend on the processing

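Of 1090 recomputed values of the 10 genes, 1026 kept their direction and their side of the threshold, 25 lost the call, 7 gained one and 33 changed sign (1 of these also gained a call), the last all in differences not called in the report. The cause of these changes was not tested. Library totals in place of TMM shifted the median of all genes by 0.11 in hypoxia against normoxia in shControl and by 0.12 in shRIPOR3. In shRIPOR3 they raised the clock genes called to 8, against 5, while over all genes 8641 were called, against 8702. In shControl they left 8 clock genes higher and 0 lower, against 8 and 2, with 10112 of all genes called, against 10142. Of all called genes, the share that were higher was 63.4% in shRIPOR3, against 45.3%, and 61.6% in shControl, against 50%. For CRY1, hypoxia against normoxia in shRIPOR3, the log2 fold change was 0.0083 with median-of-ratios factors, 0.026 with upper-quartile factors, 0.12 with library totals, 0.0054 with DESeq2, 0.020 with no filter, 0.021 with a filter of 1 CPM in 3 libraries, 0.032 with only the 2 groups compared and 0.0069 after thinning. For CRY2 in that comparison it was 0.011 with upper-quartile factors, 0.10 with library totals, 0.0029 with no filter, 0.0057 with the 1 CPM filter and 0.016 with only the 2 groups. NR1D2 there was 0.070 with library totals. ARNTL, shRIPOR3 against shControl in hypoxia, was -0.0099 with the 1 CPM filter, CRY2 in normoxia -0.0097 with only the 2 groups, and the CRY2 interaction -0.0034 after thinning. Leaving out 1 library gave -0.051 to 0.038 for CRY1 and -0.088 to 0.032 for CRY2 (hypoxia against normoxia in shRIPOR3). For shRIPOR3 against shControl it gave -0.0013 to 0.32 for PER1, -0.035 to 0.090 for CRY2 and -0.18 to 0.078 for RORA in normoxia, and -0.030 to 0.054 for ARNTL in hypoxia. Without replicate 3 of normoxia shControl the PER1 interaction was -0.56 with an adjusted p of 0.0421 (from 0.0421 to 0.386 over 21 alternatives). With 1 library left out, the genes called numbered 9 to 10 in hypoxia in shControl, 5 in shRIPOR3, 6 to 7 for the knockdown in hypoxia, 5 to 6 in normoxia and 5 to 6 for the interaction. NR1D2, shRIPOR3 against shControl in hypoxia, passed with median-of-ratios factors (0.09, adjusted p = 0.0403) and after thinning (0.14, adjusted p = 0.0322), with adjusted p from 0.0322 to 0.213 over 22 alternatives. With the replicate block the calls were 10 in hypoxia in shControl, 5 in shRIPOR3, 7 for the knockdown in hypoxia, 5 in normoxia and 5 for the interaction, as without it. Over all genes tested, same-numbered libraries did not deviate together (median correlation 0.000471 over 18 pairs, highest 0.0265). So small a correlation does not show how the replicates were handled, which the labels do not say. Of 1651 recomputed values of other named genes that were called, 56 lost the call and 0 changed sign; DBP in hypoxia, shRIPOR3 against shControl, was -0.35 after thinning and lost its call.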

Other observations

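Enzymes and corepressors that act on clock proteins were counted from a list of 14, of which 13 were tested. Hypoxia called 3 higher and 6 lower in shRIPOR3, and 3 higher and 4 lower in shControl. The knockdown called 4 higher and 4 lower in hypoxia, and 5 higher and 3 lower in normoxia. Of all genes tested, hypoxia called 55.6% in shRIPOR3 and 64.8% in shControl, and the knockdown 61.9% in hypoxia and 45.7% in normoxia. NCOR1, a corepressor that works with REV-ERB proteins, fell with the knockdown by 0.38 in hypoxia (adjusted p = 7.41e-09) and by 0.35 in normoxia (adjusted p = 2.40e-07) on the log2 scale. GSK3B, a kinase that acts on several clock proteins, rose in hypoxia by 0.13 in shRIPOR3 (adjusted p = 0.00949) and by 0.41 in shControl (adjusted p = 9.00e-09), with an interaction of -0.28 (adjusted p = 0.00149). HDAC3, the deacetylase recruited with NCOR1, fell in hypoxia by 0.27 in shRIPOR3 (adjusted p = 1.07e-06) and by 0.20 in shControl (adjusted p = 4.57e-05).

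The subunits of the hypoxia-inducible factors, known activators of BHLHE40 and BHLHE41, themselves differed between some of the groups. HIF1A mRNA averaged 61.8 ± 1.66 CPM in hypoxia shRIPOR3, 64.96 ± 2.44 in hypoxia shControl, 103 ± 3.56 in normoxia shRIPOR3 and 180 ± 0.294 in normoxia shControl. Its hypoxia differences were -0.74 ± 0.0393 in shRIPOR3 (adjusted p = 1.45e-13) and -1.47 ± 0.0388 in shControl (adjusted p = 9.17e-20). The knockdown difference of HIF1A was -0.80 ± 0.0388 in normoxia (adjusted p = 3.72e-14). In hypoxia it was -0.07 ± 0.0389 and not called (adjusted p = 0.109). EPAS1, which encodes HIF-2 alpha, averaged 8.0 ± 0.138 CPM in hypoxia shRIPOR3, 17.3 ± 0.609 in hypoxia shControl, 5.63 ± 0.469 in normoxia shRIPOR3 and 7.91 ± 0.215 in normoxia shControl. Its knockdown differences were -1.12 ± 0.0599 in hypoxia (adjusted p = 7.99e-14) and -0.47 ± 0.0884 in normoxia (adjusted p = 0.000117). Hypoxia raised EPAS1 by 0.49 ± 0.0795 in shRIPOR3 (adjusted p = 1.11e-05) and by 1.14 ± 0.0690 in shControl (adjusted p = 5.25e-13). ARNT, the shared partner subunit, had knockdown differences of -0.46 ± 0.0416 in hypoxia (adjusted p = 8.97e-10) and -0.49 ± 0.0477 in normoxia (adjusted p = 1.03e-08) on the log2 scale. Its hypoxia differences were not called, at -0.04 ± 0.0460 in shRIPOR3 (adjusted p = 0.500) and -0.06 ± 0.0435 in shControl (adjusted p = 0.208). These are mRNA levels and do not measure the activity of the factors, and their part in the clock genes' values was not tested.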
